A study of Mus musculus with 7 samples.

Results

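Polycomb proteins keep developmental genes silent and work in a pair of multi-subunit assemblies. Polycomb repressive complex 2 (PRC2) methylates lysine 27 of histone H3, and Polycomb repressive complex 1 (PRC1) ubiquitinates histone H2A and compacts chromatin, in its canonical form after chromobox subunits have bound the methylated histone. In neural stem cells these complexes are known for keeping the INK4 cell cycle inhibitor genes and the genes of other lineages off. The 10 genes described here were taken by symbol from the 18145 genes of the table, and 10 of 10 were found and passed the filter on low values. Ezh1, Ezh2, Eed, Suz12, Jarid2 and Mtf2 encode PRC2 parts, and Cbx2, Cbx7, Bmi1 and Rnf2 encode PRC1 parts.

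The libraries were made from RNA of mouse neural stem cell lines at passage 1. There were 3 wild-type (WT) lines, 2 lines of genotype Tet-TFoCa (TFoCa) and 2 of genotype Tet-TMut (TMut). The design text writes Tet-FoCa for the former. The TET enzymes oxidise 5-methylcytosine to hydroxymethyl-, formyl- and carboxylcytosine, and the series title sets the hydroxymethyl step against the later ones. The labels give neither the alleles behind either genotype nor the strain, age or origin of the lines. The design text counts as many lines as there are libraries in each genotype, so each library was taken as a line of its own, and each mutant genotype rests on 2 of them. Library depth was 33340167 to 62545457 reads in genes.

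The labelled cell type was checked on 13 neural stem cell markers. Their summed normalized count (gene counts divided by the library's size factor) was 195221 to 202922 in WT, 167371 and 178667 in TFoCa, and 160457 and 134282 in TMut. Vim, the most abundant of them, went the other way, from 65556 to 70733 in WT to 113661 and 101256 in TMut (0.66 ± 0.12, log2 fold change ± SE). With quantile normalization the Vim value was 0.12 and was not called (limma, adjusted p = 0.483). The other 12 summed to 129665 to 134398 in WT, 82459 and 90030 in TFoCa, and 46795 and 33027 in TMut. In TMut 11 of the 13 were lower than in WT at an adjusted p under 0.05 (limma, adjusted over all genes), led by Slc1a3 (-2.59 ± 0.18) and Sox2 (-1.63 ± 0.14). In TFoCa 2 were lower, Sox1 (-1.38 ± 0.30) and Sox2 (-0.59 ± 0.14), and the count was 0 without WT replicate 1, 2 or 3 or TFoCa replicate 1. Of 10 neuron markers, 9 were lower in TMut, and their sum was 66021 to 69559 in WT, 50300 and 53127 in TFoCa, and 17554 and 10173 in TMut. None of the 10 was called in TFoCa versus WT, where 8 had lower and 2 higher values. Tubb3, the most abundant, was at 23736 to 29356 in WT and 16662 and 16873 in TFoCa. Of 12 mesenchymal markers, 9 were higher in TFoCa, and their sum was 144381 to 157380 in WT against 369644 and 425322. The count was 4, 3 and 4 without WT replicates 1, 2 and 3, and 6 without either TFoCa replicate. In TMut 5 of the 12 were higher and 3, Col1a1, Pdgfra and Pdgfrb, lower. Their sum there was 305665 and 224265, of which Col3a1 made up 152575 and 132324, and the count lower was 1 without TMut replicate 2. The 10 pluripotency markers summed to 13323 to 27169 in WT, 1042 and 1330 in TFoCa, and 13012 and 49063 in TMut. In TFoCa 10 were lower than in WT, and in TMut 1 was higher and 1 lower. The TFoCa count was 9 without WT replicate 2 and 7 in a limma-voom fit. Beside these counts, 5.25% of all genes tested were called higher and 3.52% lower in TFoCa versus WT. In TMut versus WT the shares were 18.4% and 20.4%. None of 7 macrophage markers is in the table. In bulk RNA, fewer cells of a type and less RNA per cell cannot be told apart, and the part of these shifts in the results below was not tested.

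Ezh2, the main histone methyltransferase of PRC2 in dividing cells, was the member that passed the test as lower than WT in both mutant genotypes, though in TFoCa the call ended in 4 of 7 fits that left out 1 library. Mtf2, an accessory subunit that brings PRC2 to unmethylated CpG-rich DNA, was lower in TMut. Eed, which binds the methylated histone and stimulates the enzyme, was lower in TFoCa than in both other genotypes. Its call against WT ended in 11 of 19 alternative fits, and that against TMut in 2. Promoter stretches are given for these 3 genes, because they are the members that passed a test. They come from RefSeq on build GRCm38.p6, whereas the authors used mm39. Each runs 5′ to 3′ on the gene's own strand, from 150 to 31 bases before the annotated start, with CpG dinucleotides, the usual site of methylcytosine, in capitals.
Ezh2 (chr6:47595061-47595180, minus strand): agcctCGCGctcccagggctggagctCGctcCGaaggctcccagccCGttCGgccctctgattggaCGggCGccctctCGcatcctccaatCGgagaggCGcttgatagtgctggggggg
Mtf2 (chr5:108065524-108065643, plus strand): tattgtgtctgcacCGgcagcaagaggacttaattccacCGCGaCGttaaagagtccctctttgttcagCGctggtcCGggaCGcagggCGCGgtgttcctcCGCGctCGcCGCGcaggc
Eed (chr7:89981007-89981126, minus strand): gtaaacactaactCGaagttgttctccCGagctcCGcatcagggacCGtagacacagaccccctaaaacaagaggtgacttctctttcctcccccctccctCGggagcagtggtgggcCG

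These stretches hold 11 CpG in Ezh2, 14 in Mtf2 and 6 in Eed. RefSeq promoters were matched for 9 of the 10 members. In the 250 bases before the start, Ezh2 and the first Mtf2 start had 23 CpG each and Eed had 12, where the median of all 32851 promoter windows was 6. Suz12 had the most among the members, with 37. The other matched members that passed no test had 23 and 22 (Jarid2), 23 (Cbx7), 21 (Bmi1), 20 (Rnf2) and 14 (Ezh1). The other annotated Mtf2 start had 2. The letters TTTCCCGC, TTTCGCGC, TTTGCCGC and TTTGGCGC, which spell out the usual E2F motif and were searched on both strands, occurred in 2.26% of all 300-base windows. Ezh2 held TTTGGCGC from base 4 of the transcript, and Suz12 held TTTCCCGC from 219 bases before the start. The other member windows had no match. A match is only a run of letters.

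Ezh2 had normalized counts of 8813, 8510 and 9971 in WT replicates 1, 2 and 3. It stood at 5314 and 6177 in TFoCa replicates 1 and 2, and at 5296 and 4555 in TMut replicates 1 and 2. All 4 mutant libraries lay below all 3 WT libraries, and the TMut values lay below the TFoCa values. The log2 fold change was -0.66 ± 0.12 in TFoCa versus WT (0.631-fold, adjusted p = 0.0169) and -0.89 ± 0.12 in TMut versus WT (0.541-fold, adjusted p = 0.00125). Between TMut and TFoCa it was -0.22 ± 0.13 (adjusted p = 0.222), with a 95% interval from -0.53 to 0.08. The TMut call held in each of the 7 fits that left out 1 library. The TFoCa call ended without WT replicate 1 (adjusted p = 0.0502), WT replicate 2 (0.0534), WT replicate 3 (0.0659) or TFoCa replicate 1 (0.0507).

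Genes of DNA replication and mitosis, whose RNA follows cell division, were read beside Ezh2. Of 16 such genes, 0 rose and 11 fell in TFoCa versus WT, where 5.25% of all genes tested were called higher and 3.52% lower. Pcna (the replication clamp) was at -1.02 ± 0.12 and Mcm7 (a helicase subunit) at -0.95 ± 0.11. The number that fell was 6, 6 and 4 without WT replicates 1, 2 and 3, and 8 without TFoCa replicate 1. In TMut versus WT, 2 rose and 4 fell, where 18.4% of all genes were called higher and 20.4% lower. Ccna2 (cyclin A2) was at -0.51 ± 0.09 and E2f1 at -0.53 ± 0.10 in this comparison. There 7 fell without TFoCa replicate 1 or 2, and 0 rose and 2 fell without TMut replicate 2. Their summed normalized count was 134145 to 151791 in WT, 81745 and 102578 in TFoCa, and 120395 and 124235 in TMut. In TMut versus TFoCa 6 rose and 0 fell, with Tyms at 1.37 ± 0.16, where 17.3% of all genes were called higher and 18.5% lower. Whether these counts differ from the shares of all genes was not tested. The part of these 16 genes in the Ezh2 result was not tested either.

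**Figure D1:**
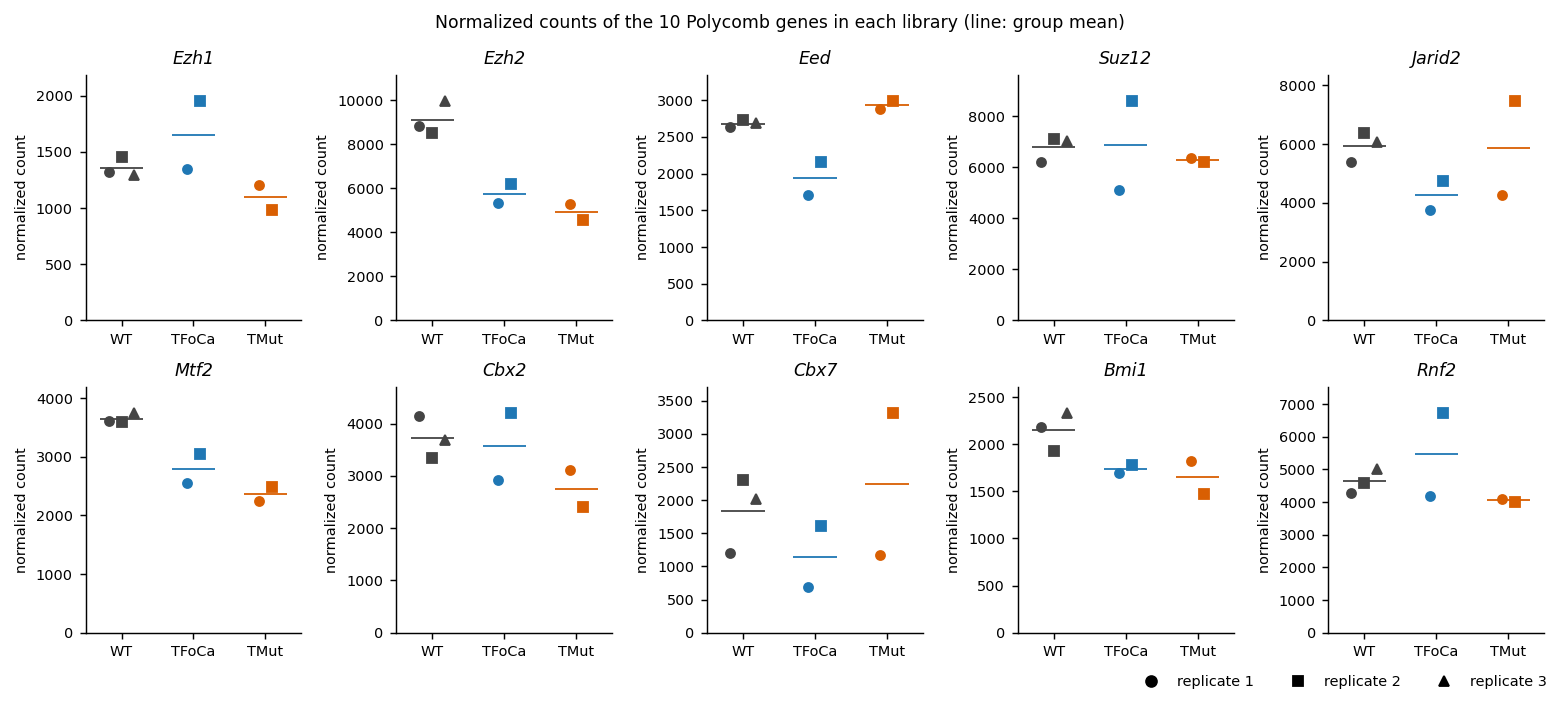
Normalized counts (y axis, from 0) of the 10 Polycomb genes in the 3 WT, 2 TFoCa and 2 TMut libraries; points are libraries, with shapes for replicate numbers, and lines are group means. Ezh2 in the mutant libraries, 4555 to 6177, lies below its WT range of 8510 to 9971, and Cbx7 spans 1166 to 3314 between the TMut libraries.

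Ezh1 encodes the other PRC2 methyltransferase, which is known from resting and differentiated cells. Its normalized counts were 1320, 1452 and 1296 in WT, 1350 and 1954 in TFoCa, and 1206 and 983 in TMut. TFoCa overlapped WT, and both TMut libraries lay below it. Neither comparison with WT passed the test, at 0.26 ± 0.18 in TFoCa (adjusted p = 0.405) and -0.31 ± 0.18 in TMut (adjusted p = 0.194). TMut versus TFoCa was at -0.58 ± 0.19, with an adjusted p of 0.051, and passed the threshold in 6 of 19 alternatives, among them the fit without TFoCa replicate 1 (-0.84, adjusted p = 0.0129).

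The ratio of the methyltransferase genes within a library follows the levels of both. Per kilobase of exon, the Ezh1 level was 0.134, 0.153 and 0.117 of the Ezh2 level in WT replicates 1, 2 and 3. The ratio was 0.228 and 0.284 in TFoCa, and 0.204 and 0.194 in TMut. Every mutant library had a higher ratio than every WT library, and the TFoCa values lay above the TMut values. In TFoCa replicate 2 Ezh1 was above and Ezh2 below its WT range, and in TMut both genes were below theirs. These ratios carry no test, since the pair was chosen with the values known.

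Eed had normalized counts of 2633, 2732 and 2685 in WT, 1704 and 2165 in TFoCa, and 2877 and 2992 in TMut. The 3 groups did not overlap, with TFoCa lowest and TMut highest. In TFoCa versus WT the log2 fold change was -0.48 ± 0.12 (0.716-fold, adjusted p = 0.0471). That call ended in 6 of 7 fits that left out 1 library: WT replicates 1, 2 and 3 (adjusted p = 0.111, 0.148 and 0.136), TFoCa replicate 1 (-0.31, adjusted p = 0.101), and TMut replicates 1 and 2 (0.0601 and 0.0604). It ended as well with edgeR (adjusted p = 0.0602), TMM normalization factors (0.0553) and limma-voom (0.0512). A limma fit to TFoCa and WT only (adjusted p = 0.0612) and replicate number as a block (0.134) also ended it. WT replicate 3 is the only library of its number, so the block gave the same log2 fold change as leaving it out (-0.4813). TMut versus WT was at 0.13 ± 0.12 (adjusted p = 0.422).

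Between the mutant genotypes Eed rose in TMut over TFoCa by 0.61 ± 0.13 (1.53-fold, adjusted p = 0.0106). The call ended when TMut replicate 2 was left out (adjusted p = 0.0578) and when WT was kept out of the fit (adjusted p = 0.0528). Per kilobase, Eed was 0.521, 0.560 and 0.470 of Ezh2 in WT, 0.559 and 0.612 in TFoCa, and 0.948 and 1.15 in TMut. Both TMut libraries lay above all others in this ratio, which follows from the levels of both genes and carries no test. In the annotation, 261 exon bases of Eed (6.8%) overlap the antisense gene E230029C05Rik, which was at 8.5 to 16.1 normalized counts across the libraries; whether strand was used in counting is not given in the sources used here.

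Suz12, the scaffold of PRC2, had normalized counts of 6208, 7116 and 7008 in WT, 5105 and 8598 in TFoCa, and 6352 and 6202 in TMut. The TFoCa libraries lay on either side of all WT libraries. Its log2 fold change was -0.03 ± 0.20 in TFoCa (95% interval -0.49 to 0.43) and -0.11 ± 0.20 in TMut (-0.57 to 0.35). Neither passed the test (adjusted p = 0.948 and 0.696). Without TFoCa replicate 1 the TFoCa value turned to 0.35 (adjusted p = 0.102), and TMut versus TFoCa was called at -0.45 (adjusted p = 0.0293), against -0.08 ± 0.22 with all libraries.

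**Figure D2:**
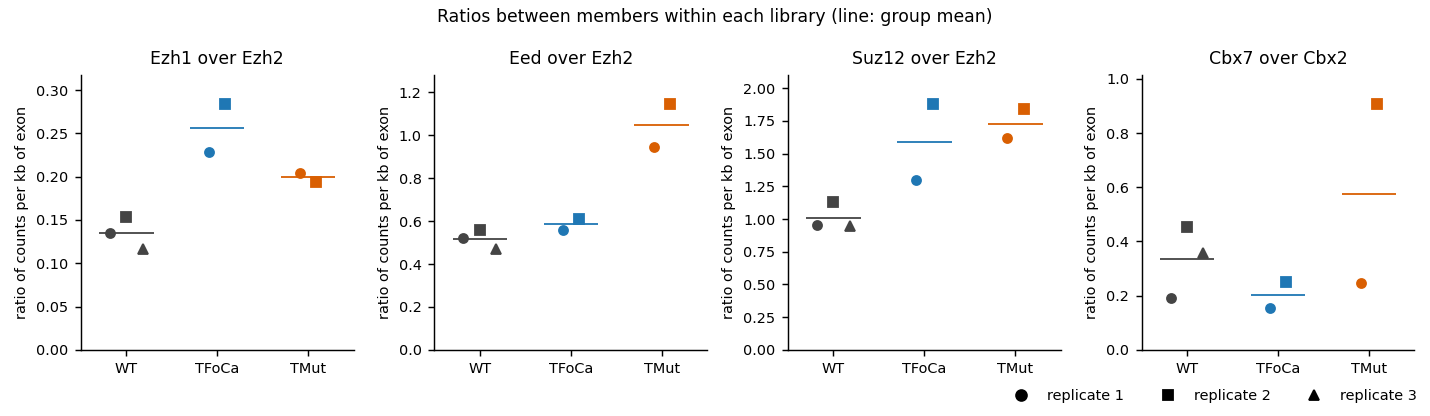
Ratios of normalized counts per kilobase of exon (y axis, from 0) between pairs of members in each library of WT, TFoCa and TMut; points are libraries and lines are group means. Ezh1 over Ezh2 is 0.117 to 0.153 in WT and 0.194 to 0.284 in the mutant libraries, and Eed over Ezh2 is highest in TMut, at 0.948 and 1.15. The ratios carry no test.

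Mtf2, also known as Polycomb-like 2, had normalized counts of 3600, 3593 and 3742 in WT, 2543 and 3053 in TFoCa, and 2252 and 2484 in TMut. The WT libraries lay close together, and all 4 mutant libraries lay below them. In TMut it fell by 0.62 ± 0.11 on the log2 scale (0.649-fold, adjusted p = 0.00377), and the call held in each of the 7 fits that left out 1 library. TFoCa versus WT was at -0.39 ± 0.11 and did not pass (adjusted p = 0.0686), except with DESeq2 (adjusted p = 0.0347) and when TFoCa replicate 2 was left out (-0.52, adjusted p = 0.0322). TMut versus TFoCa was at -0.24 ± 0.12 (adjusted p = 0.161), and was called only without TFoCa replicate 1 (-0.37, adjusted p = 0.0478). Of its exon bases, 395 (6.9%) overlap the opposite-strand gene Tmed5, which was at 1046.5 to 1263 normalized counts in WT and higher, at 1729 and 1504, in TMut.

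Jarid2, a DNA-binding accessory subunit of an alternative form of PRC2, had normalized counts of 5398, 6382 and 6058 in WT, 3750 and 4758 in TFoCa, and 4269 and 7469 in TMut. TFoCa lay below WT without overlap, and the TMut libraries lay on either side of it. The log2 fold change was -0.49 ± 0.23 in TFoCa (adjusted p = 0.226) and -0.07 ± 0.23 in TMut (adjusted p = 0.827). Without TMut replicate 1 the TMut value was 0.33 (adjusted p = 0.181), and TMut versus TFoCa was called at 0.82 (adjusted p = 0.0164), against 0.42 ± 0.25 (adjusted p = 0.221) with all libraries.

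Among the PRC1 members, none passed the test in any comparison. Rnf2 encodes RING1B, the main E3 ligase for histone H2A, and had normalized counts of 4291, 4597 and 5004 in WT, 4200 and 6722 in TFoCa, and 4107 and 4009 in TMut. Both TMut libraries lay below WT, at -0.19 ± 0.18 (adjusted p = 0.452). TFoCa was at 0.20 ± 0.18 (adjusted p = 0.547), and its value was 0.54 without TFoCa replicate 1 (adjusted p = 0.0356) and -0.14 without TFoCa replicate 2 (adjusted p = 0.522). TMut versus TFoCa, at -0.39 ± 0.20 (adjusted p = 0.169), was called without TFoCa replicate 1 (-0.73, adjusted p = 0.00864). The sign in TFoCa depended on which line was kept. Rnf2 exons share 158 bases (3.8%) with the opposite-strand gene Trmt1l, which was at 1691 to 1735 in WT and at 1483 and 2210 in TFoCa replicates 1 and 2.

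Bmi1, a RING1B partner known for neural stem cell self-renewal, had normalized counts of 2183, 1933 and 2331 in WT, 1694 and 1777 in TFoCa, and 1819 and 1477 in TMut. All 4 mutant libraries lay below WT. The log2 fold change was -0.30 ± 0.13 in TFoCa (adjusted p = 0.198) and -0.39 ± 0.13 in TMut (adjusted p = 0.0503). The TMut value crossed the threshold in 8 of 19 alternatives, among them DESeq2 (adjusted p = 0.0422), and in the fits without TFoCa replicate 1 or 2 (0.0489 in both) and TMut replicate 1 (-0.54, adjusted p = 0.0334). The highest adjusted p among the alternatives was 0.289, without TMut replicate 2 (-0.24).

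Cbx2 and Cbx7 encode chromodomain subunits, which bind methylated lysine 27 in canonical PRC1 and of which each complex holds 1. Cbx2 had normalized counts of 4143, 3336 and 3697 in WT, 2930 and 4203 in TFoCa, and 3119 and 2398 in TMut. TMut lay below WT without overlap, at -0.44 ± 0.19 (adjusted p = 0.0968). It was called without TFoCa replicate 1 (adjusted p = 0.0435) or TFoCa replicate 2 (0.0436). In TFoCa the value was -0.08 ± 0.19 (adjusted p = 0.83), and it turned to 0.18 without TFoCa replicate 1 (adjusted p = 0.57). TMut versus TFoCa, at -0.36 ± 0.20 (adjusted p = 0.202), was called without TFoCa replicate 1 (-0.62, adjusted p = 0.0482).

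Cbx7 was the most variable member, with normalized counts of 1197, 2310 and 2015 in WT, 690 and 1607 in TFoCa, and 1166 and 3314 in TMut. All 3 groups overlapped. Replicate 2 exceeded replicate 1 by 1.93-fold in WT, 2.33-fold in TFoCa and 2.84-fold in TMut. Among 8134 genes with a mean of 1000 or more, 98.6% had a smaller fold between the TFoCa replicates, and 98.6% between the TMut replicates. The log2 fold change was -0.75 ± 0.52 in TFoCa (95% interval -1.95 to 0.45) and 0.15 ± 0.52 in TMut (-1.05 to 1.35), which leaves changes of either sign within the interval. TMut versus TFoCa was at 0.90 ± 0.57 (adjusted p = 0.246). The TMut value turned to -0.60 without TMut replicate 2 and to -0.13 without WT replicate 1. Per kilobase, Cbx7 was 0.190 to 0.454 of Cbx2 in WT, 0.154 and 0.251 in TFoCa, and 0.245 and 0.907 in TMut. The opposite-strand gene Apobec3, which shares 100 bases with Cbx7 exons (1.5%), was at 454 to 822 in WT and 1532 and 1901 in TMut.

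**Figure D3:**
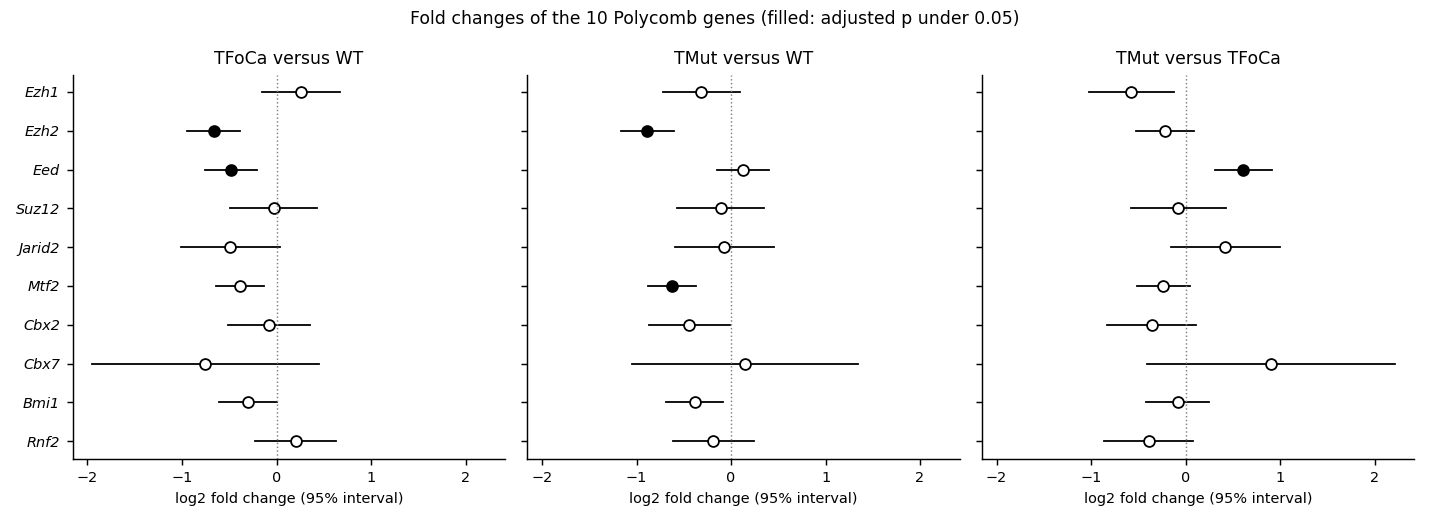
Log2 fold changes of the 10 Polycomb genes (x axis) in the 3 comparisons, with 95% intervals from limma as bars and filled points where the adjusted p was under 0.05. Ezh2 and Eed are filled in TFoCa versus WT, Ezh2 and Mtf2 in TMut versus WT, and Eed in TMut versus TFoCa; the Cbx7 bars are the widest.

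Counted together, 0 members rose and 2 fell in TFoCa versus WT, where 8.77% of all 18134 genes tested were called, 5.25% higher and 3.52% lower. In TMut versus WT, 0 rose and 2 fell, against 38.8% of all genes called, 18.4% higher and 20.4% lower. In TMut versus TFoCa, 1 rose and 0 fell, against 35.8% of all genes called, 17.3% higher and 18.5% lower. Whether the members' share differs from that of all genes was not tested. The median log2 fold change of the members was -0.35 in TFoCa and -0.25 in TMut, beside -0.02 and 0.0022 over all genes tested. All TFoCa libraries lay below all WT libraries for 5 members, and above them for 0; the others overlapped, and 45.2% of all genes did not overlap in this comparison. In TMut 6 members lay below WT and 1, Eed, above, where 67.1% of all genes did not overlap. Between TMut and TFoCa 5 members did not overlap, beside 67.5% of all genes. Both mutant genotypes were compared with the same WT lines.

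The TFoCa lines differed from each other across the set. Replicate 2 was higher than replicate 1 for 10 of 10 members, with a median log2 difference of 0.43. For 39 other Polycomb genes replicate 2 was higher for 20, and for 49.6% of the 8134 genes with a mean of 1000 or more. The difference was largest for Cbx7 (1.22), Suz12 (0.75) and Rnf2 (0.68) and smallest for Bmi1 (0.07). In TMut replicate 2 was higher for 4 of 10 members, with a median of -0.03. This pattern was noted after the values were seen and is a description of single lines.

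In WT the members' levels per kilobase of annotated exon ran from Suz12 (1371 ± 100.3 normalized counts per kilobase, SD, n = 3) and Ezh2 (1362 ± 115) through Rnf2 (1122 ± 86.7), Cbx2 (875 ± 95), Eed (701 ± 12.9), Mtf2 (640 ± 14.7), Jarid2 (612 ± 51.6) and Bmi1 (541 ± 50.6) to Cbx7 (284 ± 88.9) and Ezh1 (182 ± 11.3). Suz12 and Ezh2, Mtf2 and Jarid2, and Jarid2 and Bmi1 lay within their spreads of each other. In TMut the level of Suz12 was 1269 ± 21.5 (n = 2), that of Rnf2 983 ± 16.9 and that of Eed 767 ± 21.2, while Ezh2 stood at 738 ± 78.5. In TFoCa Ezh2 stood at 860 ± 91.4, below Suz12 at 1386 ± 499 and Rnf2 at 1323 ± 432. Lengths are those of all annotated exons joined, so genes with many long alternative exons read low.

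The remaining Polycomb genes were taken from a list of 39, and all 39 were tested. In TFoCa versus WT 0 rose and 2 fell, beside the 8.77% of all genes called. Rbbp4, a histone-binding subunit of PRC2 and of other complexes, fell by 0.43 ± 0.09 (adjusted p = 0.0246), from 16712 to 18001 in WT to 12773 and 13070. Pcgf5, a variant PRC1 subunit, fell by 0.76 ± 0.16 (adjusted p = 0.0262), from 729 to 787 in WT to 502 and 407. Both calls ended without WT replicate 1, 2 or 3 (adjusted p = 0.0703, 0.0822 and 0.101 for Rbbp4, and 0.0906, 0.105 and 0.0859 for Pcgf5), and that of Pcgf5 without TFoCa replicate 2 (0.0716).

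In TMut versus WT 3 of the 39 rose and 8 fell, beside the 38.8% of all genes called. Auts2, an activating subunit of variant PRC1, fell by 1.09 ± 0.10 (adjusted p = 0.000262), from 5432 to 5851 in WT to 2822 and 2518. Ring1, the paralog of Rnf2, fell by 1.0 ± 0.15 (adjusted p = 0.00169), from 3060 to 3623 in WT to 1799 and 1489. Pcgf5 fell by 0.66 ± 0.16 (adjusted p = 0.0128), to 522 and 444. Its call ended without TMut replicate 2 (adjusted p = 0.0806) or WT replicate 2 (0.0525).

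The genes that rose in TMut were Rbbp7, Cbx6 and Epop. Rbbp7, the paralog of Rbbp4, rose by 0.57 ± 0.11 (adjusted p = 0.00516), from 9637 to 11612 in WT to 14818 and 15962. Epop, a PRC2 accessory gene, was at 2102 to 3293 in WT and at 3896 and 8769 in TMut, a rise of 1.06 ± 0.36 (adjusted p = 0.0487). The Epop call ended without TMut replicate 2 (0.48, adjusted p = 0.311) or WT replicate 1, 2 or 3 (0.0785, 0.0726 and 0.138). Cbx6, another chromobox gene, rose by 0.44 ± 0.12 (adjusted p = 0.0241), and this call ended without TMut replicate 1 or 2 (0.0663 and 0.12) or WT replicate 2 or 3 (0.0788 and 0.0776).

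Between TMut and TFoCa 5 of the 39 rose and 6 fell, beside the 35.8% of all genes called. Rbbp7 (0.98 ± 0.12), Epop (2.06 ± 0.39) and L3mbtl2 (0.88 ± 0.17), a subunit of a variant PRC1, rose. Auts2 (-1.13 ± 0.11), Kdm6b (-0.78 ± 0.15), a demethylase of lysine 27, and Asxl3 (-0.92 ± 0.19), a cofactor of the H2A deubiquitinase, fell. Their adjusted p values ran from 0.00144 for Auts2 to 0.01 for Asxl3, and only the Asxl3 call ended when a library was left out, namely TMut replicate 2 (0.0514). Kdm6b was at 11750 to 12045 in WT, 14316 and 18208 in TFoCa, and 10483 and 8475 in TMut.

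**Figure D4:**
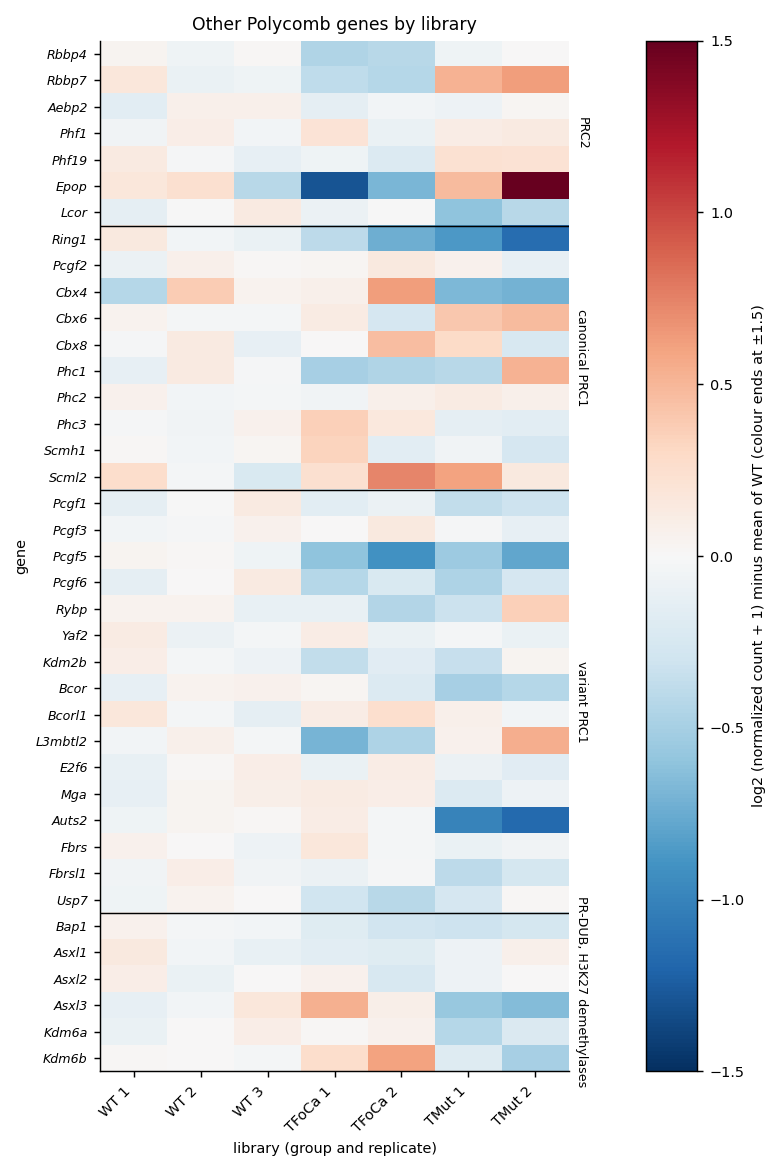
Log2 (normalized count + 1) of 39 other Polycomb genes (rows, grouped by complex) minus their WT mean in each of the 7 libraries (columns), with red for higher and blue for lower. Auts2 and Ring1 are blue and Rbbp7 red in both TMut libraries, and Epop is blue in TFoCa and red in TMut.

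Known targets of Polycomb were read from a list of 43, namely the INK4 locus, Gata4, Gata6 and the Hox clusters, of which 31 were tested. Low Hox genes passed the filter only through libraries in which they were higher, so a count or a median over them is no support for a direction. In TFoCa versus WT 3 rose and 1 fell, where 8.77% of all genes were called. Against WT, 4 rose and 1 fell in TMut, where 38.8% were called, and in TMut versus TFoCa 7 rose and 1 fell, where 35.8% were called. Their median log2 fold changes were -0.11, 1.25 and 1.20, beside -0.02, 0.0022 and -0.0019 over all genes tested.

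Cdkn2a, which encodes the INK4A and ARF inhibitors and is a classic target of Bmi1 and Ezh2, had normalized counts of 951, 789 and 810 in WT, 1520 and 2120 in TFoCa, and 3720 and 4547 in TMut. The 3 groups did not overlap. It rose by 1.08 ± 0.17 in TFoCa (adjusted p = 0.0118), by 2.28 ± 0.17 in TMut (adjusted p = 0.00016), and by 1.20 ± 0.19 in TMut over TFoCa (adjusted p = 0.00394). The TFoCa call ended without WT replicate 2 (adjusted p = 0.0519). A table of gene counts does not separate the INK4A and ARF transcripts.

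Cdkn2b, the neighbouring INK4B gene, had normalized counts of 757, 852 and 865 in WT, 2418 and 1604 in TFoCa, and 2182 and 2035 in TMut. Every mutant library lay above every WT library. It rose by 1.26 ± 0.18 in TFoCa (adjusted p = 0.00819) and by 1.35 ± 0.18 in TMut (adjusted p = 0.00106), and TMut versus TFoCa was at 0.10 ± 0.19 (adjusted p = 0.721). Both calls against WT held in each of the 7 fits that left out 1 library. These rises were recorded beside the lower Ezh2; a link between them was not tested.

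Gata4, an endoderm and heart factor, was at 232, 247 and 306 in WT, 95.8 and 144 in TFoCa, and 326 and 670 in TMut, and rose by 1.99 ± 0.37 in TMut over TFoCa (adjusted p = 0.00676). Hoxd8 was at 149, 325 and 246 in WT, 720 and 1503 in TFoCa, and 309 and 445 in TMut. It rose by 2.18 ± 0.41 in TFoCa (adjusted p = 0.0189), a call that ended without WT replicate 1 (0.0511), WT replicate 3 (0.0605) or TFoCa replicate 2 (1.65, adjusted p = 0.0628). It fell in TMut relative to TFoCa (-1.49 ± 0.45, adjusted p = 0.0353), a call that ended without TFoCa replicate 2 (-0.96, adjusted p = 0.153), TMut replicate 1 (0.135), TMut replicate 2 (0.0726) or WT replicate 3 (0.0591). Hoxc4 went the other way in TFoCa, from 147 to 392 in WT to 63.2 and 24.3 (-2.35 ± 0.54, adjusted p = 0.0374). That call ended without WT replicate 1, 2 or 3 (adjusted p = 0.0879, 0.0764 and 0.0762) or TFoCa replicate 2 (0.122). Hoxb1 fell in TMut from 130 to 181 in WT to 41.5 and 19.2 (-2.32 ± 0.68, adjusted p = 0.0297), which ended without TMut replicate 2 (0.167) or WT replicate 1, 2 or 3 (0.0639, 0.0875 and 0.0711).

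**Figure D5:**
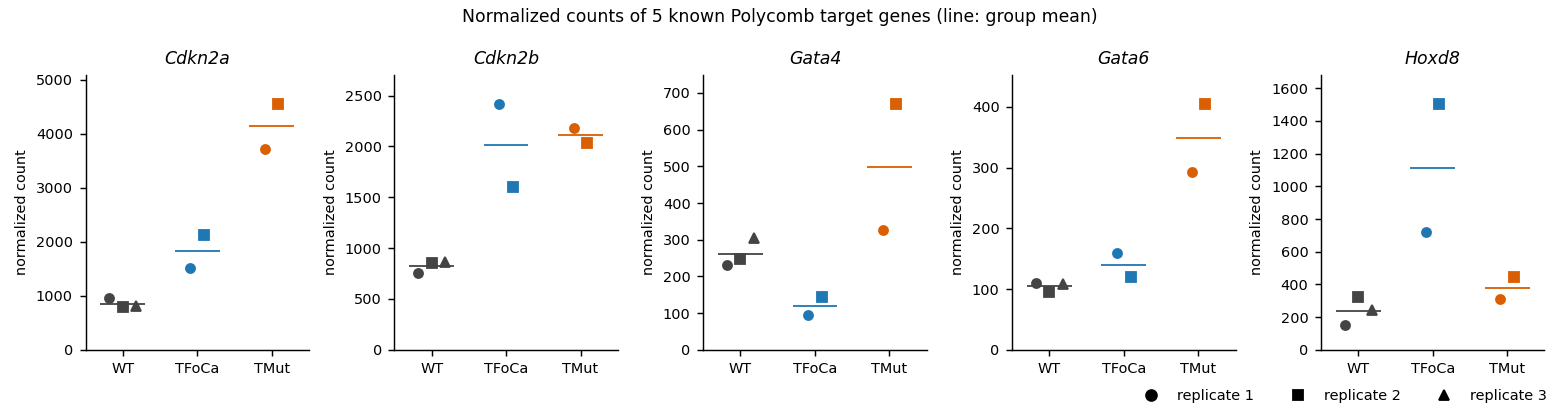
Normalized counts (y axis, from 0) of 5 known Polycomb target genes in the 3 WT, 2 TFoCa and 2 TMut libraries; points are libraries and lines are group means. Cdkn2a steps up from 789 to 951 in WT to 1520 and 2120 in TFoCa and 3720 and 4547 in TMut, and Cdkn2b is above WT in all mutant libraries.

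The genes closest in pattern to each called member were found among 13197 genes with a mean of 100 or more, by the root mean square difference of centred log2 values over the 7 libraries. Ezh2 was closest to Nusap1 (0.07), Ttc32 (0.08) and Kif11 (0.09); Nusap1 and Kif11 encode spindle proteins. Nusap1 had a log2 fold change of -0.61 in TFoCa and -0.93 in TMut, and Kif11 of -0.66 and -0.83. Eed was closest to Zwilch (0.03), a kinetochore gene, Rttn (0.05) and Exosc3 (0.05), each lower in TFoCa than in the other genotypes. Mtf2 was closest to Ipmk (0.04), Tle4 (0.05) and Ube2q2 (0.06). All these genes were picked by likeness over the same 7 libraries, so the directions they share with a member follow from the choice. Whether genes of cell division are frequent among them was not tested.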

How the data were processed

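The authors worked on build mm39 with STAR 2.7.3a, Trim Galore 0.6.5, DESeq2, featureCounts and SAMtools, per the submitters' processing notes; settings, strand and annotation are not given in the sources used here. The deposited table holds normalized counts (signal), that is gene counts divided by each library's size factor. Whole reads were recovered for 100% of values, within 0.001 read. Even numbers made up 70.29% to 79.32% of values between 1 and 20 reads, as when both mates of a pair are counted, so count models may overstate precision. Genes at 10 or more in at least 2 libraries (18134) entered 1 limma model of log2(value + 1) across all 7 libraries (limma 3.58.1, R 4.3.3, variance trended on intensity, 4 residual degrees of freedom). Calls were made where the p adjusted by Benjamini and Hochberg was below 0.05. Fold changes are on that scale. In simulated data, 100 genes were changed by each of 2 sizes. Of changes of 1 log2 unit, the fit recovered 32% for TFoCa against WT, 18% for TMut against WT and 40% for TMut against TFoCa. Of changes of 0.5, it recovered 0%, 0% and 2%. No other genes were changed among the 18090 to 18095 fitted, far fewer than were called in the data. The adjustment over all genes was thus stricter in the simulation, and these shares do not give the sensitivity in the data.

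The members and lists were chosen with earlier results of these data known. Named are all members, the 3 other Polycomb genes and 2 targets per direction with the smallest adjusted p, and the INK4 genes, the 2 marker or proliferation genes per list and comparison with the smallest adjusted p where they touch a result, and the 3 genes nearest in pattern to each called member. Alternatives were pseudocounts, filters, normalizations, edgeR 4.0.16, DESeq2 1.42.0, voom, a fit to 2 genotypes, a replicate block and each library left out. WT replicate 3 is the only library of its number, so under the block it adds nothing to the fold changes. Exon lengths and overlaps come from GENCODE M21 on GRCm38.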

Additional observations from a re-analysis of the deposited data

How the results depend on the processing

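The lower Ezh2 and Mtf2 in TMut kept direction and call in all 19 alternatives, and Ezh2 in TFoCa kept its direction in all 19. Members called in TFoCa versus WT numbered 2, and 1 with TMM factors, edgeR, voom or 2 genotypes only, and 0 with the replicate block (Ezh2 adjusted p = 0.0915, Eed 0.134). Leaving out a library gave 0 to 3. In TMut versus WT the count was 2, and 4 with 2 genotypes only, and 2 to 4 with a library left out. In TMut versus TFoCa it was 1, and 2 with a pseudocount of 8, a mean of 50 or more, edgeR, DESeq2, robust empirical Bayes or the replicate block, and 0 with 2 genotypes only, and 0 to 6 with a library left out.

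Other Polycomb genes called in TFoCa versus WT numbered 2, against 8 with DESeq2, 4 with 2 genotypes only, 0 with the replicate block and 0 to 4 with a library left out. In TMut versus WT they numbered 11, against 4 with the replicate block and 3 to 14 with a library left out. In TMut versus TFoCa they numbered 11, against 7 with 2 genotypes only and 5 to 11 with a library left out. Targets called numbered 4 in TFoCa versus WT, against 7 with DESeq2 and 2 to 5 with a library left out. They numbered 5 in TMut versus WT, against 8 with DESeq2, 3 with the replicate block and 3 to 8 with a library left out. In TMut versus TFoCa they numbered 8, against 5 at a mean of 50 or more, 4 with 2 genotypes only and 3 to 7 with a library left out. Over all genes, calls moved too. In TFoCa versus WT they numbered 1590, against 1606 with edgeR, 1540 with voom and 1759 with 2 genotypes only. They numbered 2947 with DESeq2, 555 with the replicate block, and 734, 495 and 638 without WT replicates 1, 2 and 3. In TMut versus WT 7043 were called, against 4620 with the replicate block. In TMut versus TFoCa 6491 were called, against 5958 at a mean of 50 or more and 3474 with 2 genotypes only. The cause of these shifts was not tested.

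Of 570 member values under alternatives, 13 changed sign, none of them called. With all libraries kept these were Suz12 in TFoCa versus WT with edgeR (0.0392) and DESeq2 (0.0155), and Jarid2 in TMut versus WT with edgeR (0.0168). With a library left out, the log2 fold change in TFoCa versus WT ranged from -0.0051 to 0.5281 for Ezh1, from -0.406 to 0.3459 for Suz12, from -0.3407 to 0.1795 for Cbx2 and from -0.1379 to 0.5405 for Rnf2. In TMut versus WT it ranged from -0.4745 to 0.3324 for Jarid2 and from -0.6046 to 0.9018 for Cbx7. In TMut versus TFoCa it ranged from -0.4539 to 0.2980 for Suz12 and from -0.2326 to 0.0678 for Bmi1.

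Replicate numbers were not taken to pair lines. Deviations of same-numbered libraries correlated across genes by 0.0192 to 0.185. Differently numbered libraries were not compared in this way, so these values do not decide whether the numbers pair lines. With the replicate block, Cbx7 in TMut versus TFoCa was called (0.90, adjusted p = 0.0176), and the rise of Cdkn2a in TFoCa was not (adjusted p = 0.0605). In TFoCa versus WT it gave 3 proliferation genes called lower, against 11, and 4 mesenchymal markers called higher, against 9. Each mutant genotype had 2 lines. Few changes of 0.5 log2 units were called in simulated data, but those data held far fewer changed genes than were called here. That recovery therefore does not give the sensitivity in these data.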
